A study of Caenorhabditis elegans with 19 samples.

Results

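The yolk genes of Caenorhabditis elegans were followed in RNA from dissected gonads: the 6 vitellogenin genes vit-1 to vit-6 and rme-2, which encodes the receptor that brings yolk into the oocyte. The 7 genes were chosen by name from 19985 genes in a table of protein-coding genes and 46930 features in a table of fractional counts. Both tables hold all 7. The study had 3 strains, ESC332, ESC422 and ESC420, in which the RNA polymerase I subunit RPOA-2 or the ribosome assembly chaperone GRWD-1 or TSR-2 carried an auxin-inducible degron, a tag through which the plant hormone auxin leads to breakdown of the protein. Late L4 hermaphrodites of each strain spent 18 h at 20 °C on plates with 1 mM auxin (IAA) or with the solvent ethanol, seeded with the bacterium OP50, and 20 gonads were pooled for each replicate. Of the 19 libraries, 8 were from the RPOA-2 strain (4 per treatment), 6 from the GRWD-1 strain (3 per treatment) and 5 from the TSR-2 strain (2 ethanol, 3 auxin). All groups carried a degron, no group in the labels received auxin without one, and the tissue in which the auxin receptor was expressed is not given.

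Yolk proteins are lipoproteins that the hermaphrodite's intestine makes in large amounts once it is adult. They are secreted into the body cavity, pass between the cells of the gonadal sheath and are taken up by growing oocytes. RME-2, a member of the low-density lipoprotein receptor family, binds them on the oocyte surface and carries them inside through clathrin-coated pits. The vitellogenin transcripts therefore belong to a tissue that a dissected gonad is not meant to hold, whereas rme-2 is a transcript of the germ line itself. VIT-1 to VIT-5 are the larger yolk proteins, and VIT-6 is cut into a pair of smaller ones.

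Of the vitellogenin genes, 5 lie on chromosome X and 1 on chromosome IV (WBcel235 coordinates from the Ensembl annotation, counted from 1). On the X chromosome vit-5 (WBGene00006929, plus strand) spans 3403471 to 3408603. Farther along, vit-4 (WBGene00006928, minus strand) spans 3558769 to 3563965 and vit-3 (WBGene00006927, minus strand) spans 3567355 to 3572549, so that only 3389 bases separate these copies. The gene vit-2 (WBGene00006926, plus strand) spans 5101042 to 5106169, and vit-1 (WBGene00006925, plus strand) spans 7727889 to 7733168. On chromosome IV, rme-2 (WBGene00004374, plus strand) spans 5470026 to 5473174 and vit-6 (WBGene00006930, plus strand) spans 8261157 to 8266459. Other annotated genes overlap 3 of the 7 on the opposite strand: C42D8.9 over vit-2, and the noncoding RNAs T27A10.8 over vit-3 and F59D8.3 over vit-4. The kit kept the strand of the RNA, but whether the counting used it is not given in the sources used here, so these 3 genes and their antisense partners may not be fully separated. C42D8.9 itself had 0 to 14 counts in the protein-coding table.

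Counts on protein-coding genes were 1582308 to 8012912 per library in the RPOA-2 strain and 2031037 to 8526501 in the GRWD-1 strain. The TSR-2 libraries had only fractional counts, with 43631 to 3950204 counts on protein-coding genes. The library at 43631 is auxin replicate 3, in which 3 counts correspond to 59.4 CPM (counts scaled to a common library size). In the RPOA-2 strain, replicate 4 stands in a separate run of library numbers in the labels and is in the protein-coding table only. As a check of the labelled tissue, all 12 germline markers were detected in every library, at a summed 6359.6 to 11286 CPM in the protein-coding table and 9009 to 11698 CPM in the TSR-2 libraries. Nothing in the labels says whether replicates came from separate cultures, so p-values measure the spread between these samples only.

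The copies vit-3 and vit-4 had far more fractional counts than counts in the protein-coding table, whereas for vit-6 and rme-2 the counts were almost equal. Such an excess measures reads shared with other places in the genome only if the protein-coding table leaves those reads out. The sources used here do not say whether it does. This was read from the 12 libraries present in both tables, as the ratio of the fractional count, which divides a multiply mapping read among its places, to the count in the protein-coding table. Pooled over these libraries, vit-3 had 4.55 times as many fractional counts as counts in the protein-coding table (3.11 to 8.05 by library). The ratio was 3.70 for vit-4 (2.23 to 5.99). Both values set these copies apart from the other 4 vitellogenin genes. For vit-5 the ratio was 1.25 (1.18 to 1.32) and for vit-1 it was 1.24 (1.19 to 2.50). It was 1.03 for vit-2, 1.00 for vit-6 and 1.00 for rme-2. In other words, 78.0% of the fractional counts of vit-3 and 73.0% of those of vit-4 were beyond what the protein-coding table held, against 19.9% for vit-5, 19.4% for vit-1 and 2.77% for vit-2. Among all 8270 genes with a mean of at least 10 counts, the median ratio was 1.02, and 81 genes (0.979%) reached the ratio of vit-3. The ratio also moved within a gene: for vit-3 it was 3.11 to 3.22 in the GRWD-1 ethanol libraries and 4.63 to 5.08 in the RPOA-2 ethanol libraries.

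**Figure D1:**
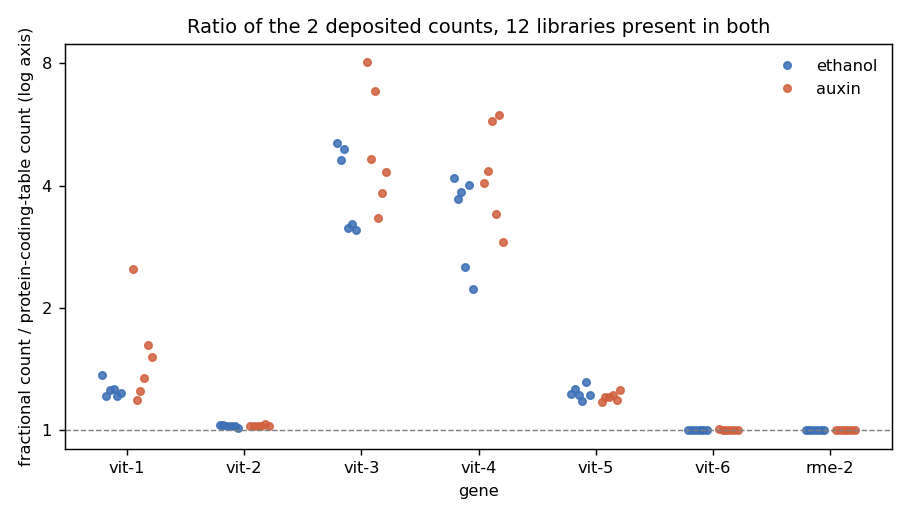
Ratio of the fractional count to the count in the protein-coding table (y axis, log scale) for each yolk gene (x axis), 1 point per library for the 12 libraries in both tables, coloured by treatment. The points of vit-3 lie between 3.11 and 8.05 and those of vit-4 between 2.23 and 5.99, while vit-6 and rme-2 lie on the dashed line at 1.

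The choice of table therefore changed the level of vit-3 and vit-4 but hardly that of the family. Summed over the 6 genes, the fractional count was 1.08 to 1.23 times the other by library. In the GRWD-1 ethanol libraries, vit-3 stood at 11.2 ± 7.41 CPM per kilobase of exon (SD, n = 3) in the protein-coding table and at 32.3 ± 19.9 in the fractional table. For vit-4 these levels were 14.5 ± 11.8 and 36.1 ± 23.4. The CPM ratio of vit-3 to vit-4 ranged from 0.444 to 1.73 over the 14 libraries of the protein-coding table. It stayed between 0.773 and 1.06 in the 16 libraries of the fractional table with counts enough to compare them, and in either table the order of these copies differed between libraries.

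Among the vitellogenins, vit-6 and vit-2 made up most of the transcripts. Per length, vit-6 held 41.8 to 53.1% of the summed vitellogenin level over the 14 libraries of the protein-coding table, vit-2 held 27.7 to 47.9% and vit-5 held 6.68 to 17.9%. In that table the smallest shares were 0.755 to 6.04% for vit-1, 0.652 to 3.97% for vit-4 and 0.290 to 4.43% for vit-3, and the order of these 3 genes changed from library to library. With shared reads divided among the copies, the shares were 2.17 to 9.68% for vit-3 and 2.46 to 10.03% for vit-4 over 16 libraries of the fractional table, and vit-1, at 1.75 to 4.14%, was the lowest of the 3 in 16 of 16. In 13 of the 14 libraries of the protein-coding table vit-6 was above vit-2, by 1.26 to 1.80 times per length. The exception was RPOA-2 auxin replicate 1, where vit-2 held 47.9% and vit-6 held 43.7%. That library also had the lowest CPM ratio of vit-1 to vit-2, at 0.0163, against 0.0442 to 0.224 in the other 13.

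Levels of the vitellogenins differed between libraries of the same group far more than those of most genes, and rme-2 did not. As a spread over replicates within groups, the SD of log2(CPM + 1) was 2.2 for vit-3, 2.05 for vit-4, 2.03 for vit-1, 1.80 for vit-6, 1.79 for vit-5 and 1.74 for vit-2. The median over the 5678 genes with a mean of at least 10 CPM was 0.253, and the vitellogenins took ranks 6 to 44 from the most variable. With an SD of 0.173, rme-2 took rank 4956. The vitellogenin genes moved together across libraries: over the 14 libraries, Pearson's r of log2(CPM + 1) was 0.896 to 0.992 for the 15 pairs of vitellogenin genes and 0.275 to 0.314 for rme-2 with each of them. These correlations describe libraries that share groups and depth, and none was tested.

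In the RPOA-2 strain, the vitellogenins were spread over more than an order of magnitude in each treatment, and none of the 7 genes passed the test. As shares of protein-coding counts, the 6 genes together held 0.167, 4.35, 0.596 and 2.26% in ethanol replicates 1 to 4 and 0.315, 0.147, 0.0714 and 2.33% in auxin replicates 1 to 4. The Wilson 95% interval of the largest share was 4.33 to 4.36%, and such intervals cover counting error only. Ethanol replicates 2 and 4 and auxin replicate 4 stood apart as high, and the treatments overlapped.

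By gene, vit-6 stood at 796, 17370.5, 2679.5 and 10066 CPM in ethanol replicates 1 to 4 and at 1405, 568, 290.2 and 10548 CPM in auxin replicates 1 to 4. For vit-2 the levels were 544, 11364, 1799 and 6398 CPM in ethanol and 1499, 429.7, 225 and 6654 CPM in auxin. The highest ethanol library was replicate 2 in both genes and the highest auxin library was replicate 4, at the level of its ethanol partner. For vit-5, ethanol gave 214, 4945, 781 and 3791 CPM and auxin gave 206, 222, 118 and 3171 CPM. The level of vit-1 was 47.4, 1606, 181 and 1436 CPM in ethanol and 24.4, 55.8, 21.7 and 714 CPM in auxin. Both genes are among the 3 that were lower in auxin in all 4 same-numbered pairs, by little in replicate 1 of vit-5, and the other is vit-3. That copy, vit-3, stood at 28.0, 897, 101 and 1019.8 CPM in ethanol and at 9.07, 29.5, 8.96 and 668 CPM in auxin. Its neighbour vit-4 stood at 38.5, 1235, 137 and 588 CPM in ethanol and at 20.4, 31.2, 10.97 and 731 CPM in auxin. As in the other vitellogenin genes, auxin replicate 4 lay inside the ethanol range. Of the other 3 auxin libraries, all 3 lay below the ethanol range for vit-4, and 2 did for each of the other vitellogenin genes.

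On the log2 scale, the fitted changes (auxin over ethanol, edgeR quasi-likelihood test with Benjamini-Hochberg adjustment over 7881 genes) ran from -1.24 for vit-2 to -2.06 for vit-1. For vit-1 the change was -2.06 ± 1.24 (SE) with an adjusted p of 0.412 in edgeR. For vit-6 it was -1.32 ± 1.11, with an edgeR adjusted p of 0.579. The other 4 vitellogenin genes had edgeR adjusted p-values of 0.543 to 0.609. Thus 0 of 7 yolk genes were called, where 3.78% of all genes tested were. At an unadjusted p under 0.05 there were also 0 of 7, against 19.2% of all genes, and DESeq2 called 0 as well, against 6.76% of all genes. The treatments overlapped in all 7, and were apart in 11.3% of all genes. The summed level was lower in auxin in 3 of 4 same-numbered pairs, with log2 differences of 0.92, -4.81, -3.07 and -0.05 in replicates 1 to 4.

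Single libraries set the size of this difference. With auxin replicate 4 left out, vit-1 was at -4.62 and vit-3 at -4.997 on the log2 scale, and vit-4 alone was called, at -4.63 with an edgeR adjusted p of 0.0472, where 2.49% of all genes were called. With ethanol replicate 2 left out, vit-2 was at -0.40 and vit-4 at -0.36, and no yolk gene was called, against 2.8% of all genes. Leaving out any of the other 6 libraries left 0 calls. In replicates 1 to 3 alone, which share a series of library numbers, the changes were -2.77 to -4.58 for the vitellogenins and 0 of 7 yolk genes were called, against 1.58% of all genes. Replicate 4 forms the other series with 1 library per treatment, where the log2 differences were -1.01 for vit-1, 0.06 for vit-2, -0.61 for vit-3, 0.31 for vit-4, -0.26 for vit-5 and 0.07 for vit-6.

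Markers of the intestine and the hypodermis were high in the libraries where the vitellogenins were high. Those of body wall muscle were high in ethanol replicate 2 only, and those of the somatic gonad were not high in these libraries. The 14 intestine markers summed to 64.9, 739.8, 183 and 312 CPM in ethanol replicates 1 to 4 and to 97.2, 67.4, 19.7 and 407 CPM in auxin replicates 1 to 4, with 10 to 14 of them detected. Like the vitellogenins, they were highest in ethanol replicates 2 and 4 and auxin replicate 4. The defining intestinal regulator elt-2, a GATA factor, was at or near 0: its group means were 1.70 CPM in ethanol and 0.594 CPM in auxin, with 0 counts in 1 and 2 of 4 libraries. Of the 14 markers, 7 had counts enough to be tested, and elt-2 was not among them. All 7 had log2 changes below 0, with a median of -1.26, and 0 were called. The median was -1.42 over the vitellogenins and -0.01 over all genes tested. The 8 hypodermis markers summed to 53.0, 852, 71.6 and 207 CPM in ethanol and to 48.2, 95.2, 22.6 and 329 CPM in auxin, high in the same 3 libraries, with 5 to 8 detected. The 9 body wall muscle markers summed to 2552 CPM in ethanol replicate 2 and to 495 to 920.4 CPM in the other 7 RPOA-2 libraries, where both replicate 4 libraries, at 555 and 610.6 CPM, were below auxin replicates 1 and 3. The 9 markers of gonadal sheath and spermatheca summed to 1552 to 2583 CPM in ethanol, lowest in replicate 2, and to 1045 to 1525 CPM in auxin. Most of that sum was the filamin gene fln-1, with means of 1781 and 1004 CPM. The part of these other tissues in the vitellogenin levels was not tested, and in such bulk samples fewer cells of a type and less RNA per cell cannot be told apart.

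**Figure D2:**
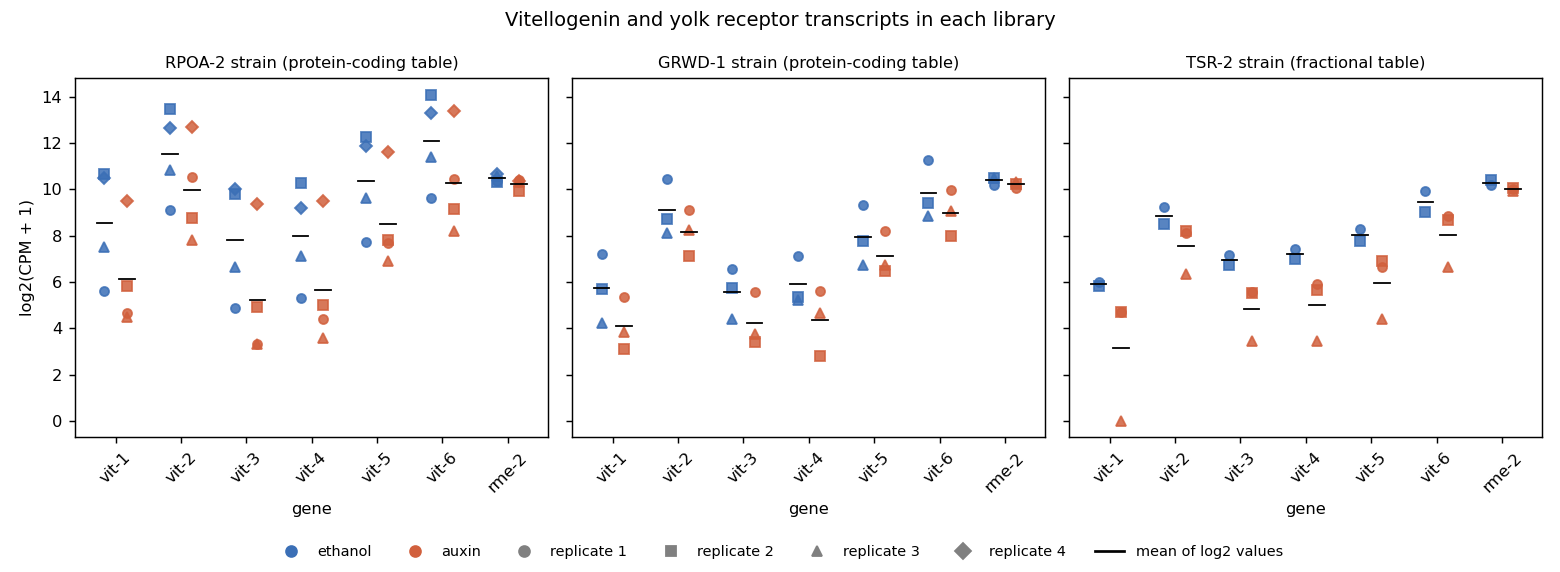
Level of each yolk gene in every library as log2(CPM + 1) (y axis) by gene (x axis) and strain (panels), blue for ethanol and red for auxin, with a symbol per replicate number and a bar at the mean of the log2 values. The RPOA-2 and GRWD-1 panels use the protein-coding table and the TSR-2 panel the fractional table, and the points of rme-2 lie close together in all 3 panels while those of the vitellogenins spread.

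In the GRWD-1 strain, the vitellogenins summed to 502 to 4890.3 CPM, against 675 to 37417 CPM in the RPOA-2 strain. Here 0 of 7 yolk genes passed the test without regard to pairing, while all 6 vitellogenins passed as lower when replicate number was a block. Their summed share of protein-coding counts was 0.501, 0.125 and 0.0823% in ethanol replicates 1 to 3 and 0.193, 0.0442 and 0.0934% in auxin replicates 1 to 3. In both treatments, the replicate numbered 1 was the highest.

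For vit-6 the levels were 2470.4, 670.1 and 459.4 CPM in ethanol and 988, 254 and 528 CPM in auxin. For vit-2 they were 1411, 420.5 and 276 CPM in ethanol and 543, 138 and 298 CPM in auxin. In replicates 1 and 2 both genes were lower in auxin, and in replicate 3 they were slightly higher. The largest difference was that of vit-1, at 148, 51.4 and 17.7 CPM in ethanol and 39.6, 7.60 and 13.2 CPM in auxin. The copy vit-4 stood at 138, 40.2 and 35.9 CPM in ethanol and at 48.1, 6.0 and 23.9 CPM in auxin. For vit-3 the levels were 92.8, 52.9 and 19.9 CPM in ethanol and 45.8, 9.47 and 12.4 CPM in auxin. These genes, vit-1, vit-3 and vit-4, were lower in auxin in 3 of 3 pairs, although the treatments overlapped. For vit-5 they were 629.9, 215 and 105 CPM in ethanol and 289.7, 86.9 and 107 CPM in auxin.

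Fitted log2 changes ran from -1.02 ± 0.586 (SE) for vit-5 to -1.89 ± 0.703 for vit-1. The edgeR adjusted p-values, over 6948 genes, were 0.180 for vit-1, 0.257 for vit-4, 0.289 for vit-3, 0.320 for vit-2, 0.373 for vit-6 and 0.402 for vit-5. Of all genes tested, 2.69% were called. At an unadjusted p under 0.05 there were 2 of 7, vit-1 at 0.0200 and vit-4 at 0.0411 in edgeR, against 17.8% of all genes, and DESeq2 called 0 of 7 and 5.43% of all genes. The treatments overlapped in all 7 here too, and were apart in 23.1% of all genes.

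Same-numbered libraries deviated together, and with replicate number as a block the edgeR adjusted p-values were 0.00381 for vit-1, 0.00499 for vit-4, 0.00869 for vit-3, 0.0110 for vit-5, 0.0155 for vit-2 and 0.0252 for vit-6. The blocked log2 changes were -0.88 to -1.82. With the block, 14% of all genes were called, so that more calls were made throughout. In replicate 3, the pair differences of vit-2, vit-5 and vit-6 were 0.11, 0.02 and 0.20 on the log2 scale. Without ethanol replicate 1, the unblocked log2 changes were -0.07 for vit-2, -0.76 for vit-1, 0.032 for vit-5 and 0.087 for vit-6. That fit leaves auxin replicate 1, the highest auxin library, without its partner. As pairs, the summed vitellogenins differed on the log2 scale by -1.32 in replicate 1, -1.53 in replicate 2 and 0.10 in replicate 3.

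The 14 intestine markers summed to 98.6, 24.3 and 20.4 CPM in ethanol and to 43.6, 14 and 22.9 CPM in auxin, with 5 to 14 detected, which put the 6 libraries in the same order as the summed vitellogenins. The 8 hypodermis markers summed to 34.6, 13.5 and 12.8 CPM in ethanol and to 38.2, 13.7 and 27.6 CPM in auxin, and the 9 body wall muscle markers to 268 to 306 CPM in ethanol and 330 to 426 CPM in auxin. The regulator elt-2 had 0 counts in 2 of 3 libraries of each treatment. Only 3 of the 14 intestine markers were tested, with a median log2 change of -1.35. Of these, 2 were below 0 and 0 were called. The 9 markers of gonadal sheath and spermatheca, the somatic cells around the oocytes, summed to 2296 to 3301 CPM in ethanol and 992 to 1341 CPM in auxin, without overlap. Most of that sum was the filamin gene fln-1, with means of 2593 and 1047 CPM. Over the 7 markers of this list that were tested, the median log2 change was 0.008, and 3 of 7 were below 0. The part of either tissue in the vitellogenin difference was not tested.

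**Figure D3:**
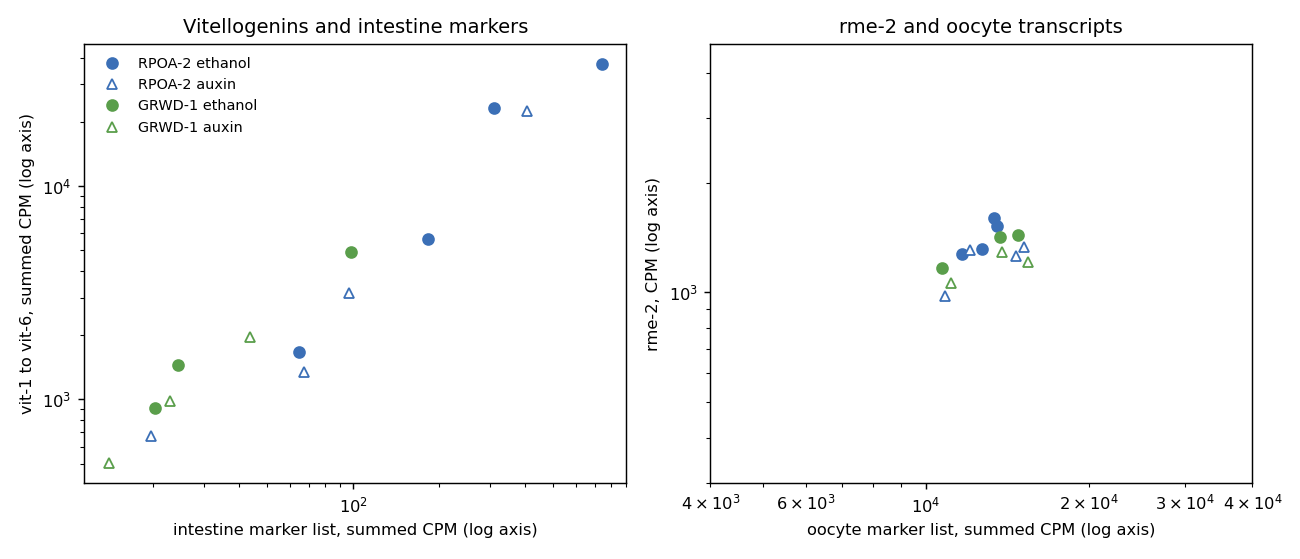
Left, summed CPM of vit-1 to vit-6 (y axis) against the summed CPM of 14 intestine markers (x axis), and right, CPM of rme-2 against the summed CPM of 14 oocyte genes, all on log axes, for the 14 libraries of the protein-coding table (filled, ethanol; open, auxin). On the left both sums range widely, from 502 to 37417 CPM for the vitellogenins and from 14 to 739.8 CPM for the intestine markers, and libraries high in one are high in the other, while rme-2 stays between 979.8 and 1599.8 CPM.

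In the TSR-2 strain, vit-1, vit-3, vit-4 and vit-5 were called as lower with auxin. Without the shallow auxin replicate 3, no yolk gene was called. All 7 yolk genes were lower in every auxin library than in either ethanol library, where 30.6% of all genes were apart in either direction. These values are from the fractional table, where vit-3 and vit-4 may carry shared reads, so their changes may not be separate. The summed share of protein-coding counts was 0.195 and 0.137% in ethanol and 0.0911, 0.0782 and 0.0252% in auxin. The last of these is from auxin replicate 3, with 11 vitellogenin counts and a Wilson 95% interval of 0.0141 to 0.0451%.

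In ethanol replicates 1 and 2, vit-3 stood at 141 and 107 CPM, and in auxin replicates 1 to 3 it stood at 46.1, 45.4 and 9.90 CPM. For vit-4 the levels were 173 and 126 CPM in ethanol and 59.4, 49.5 and 9.90 CPM in auxin. Both copies were lower in the deeper auxin libraries, replicates 1 and 2, as well as in replicate 3. For vit-5, ethanol gave 309 and 218 CPM and auxin 99.6, 118 and 19.8 CPM. The level of vit-1 was 63.4 and 55.8 CPM in ethanol and 25.0, 25.1 and 0 CPM in auxin. In auxin replicate 3, the values of vit-1, vit-3, vit-4 and vit-5 were under the 59.4 CPM that 3 counts are worth there. The more abundant vit-6 stood at 960.2 and 523 CPM in ethanol and at 458.1, 402 and 99.0 CPM in auxin. For vit-2 the levels were 605.1 and 356 CPM in ethanol and 277, 295 and 79.2 CPM in auxin. In these 2 genes the lower ethanol library, replicate 2, was close to the higher auxin library.

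The fitted log2 changes were -1.55 ± 0.302 (SE) for vit-4, -1.53 ± 0.306 for vit-3, -1.38 ± 0.258 for vit-5 and -1.33 ± 0.353 for vit-1. Their adjusted p-values in edgeR's quasi-likelihood test over 6396 genes were 0.00475, 0.00573, 0.00339 and 0.0364. For vit-2 the change was -0.91 ± 0.269 and for vit-6 -0.99 ± 0.293, both with an edgeR adjusted p of 0.0650. Which vitellogenins passed depended on the fit. With RLE size factors all 6 did (vit-2 at an edgeR adjusted p of 0.0398 and vit-6 at 0.0420), against 2.97% of all genes. With adjacent library numbers as a block, which ties ethanol replicate 1 to auxin replicate 2 and ethanol replicate 2 to auxin replicate 3, the edgeR adjusted p was 0.000325 for vit-2 and 3.92e-07 for vit-6, while vit-1 was lost at 0.241, against 1.95% of all genes called. The labels do not say that adjacent numbers mark pairs. In that fit auxin replicate 1 stands alone in its block and adds nothing to the change. The blocked values therefore rest on the ties named, which include auxin replicate 3 with its 43631 counts. Without a block, with TMM factors, 4 of 7 yolk genes were called as lower, where 2.02% of all genes tested were called as lower and 2.55% in either direction. The absence of overlap in 7 of 7 stands beside 30.6% of all genes. Without auxin replicate 3, the library of 43631 counts, 0 of 7 yolk genes were called and 0.0885% of all genes were. The changes were then -1.43 for vit-3, -1.45 for vit-4 and -1.27 for vit-5, with edgeR adjusted p-values of 0.0587, 0.0587 and 0.0591. For these genes the sizes stayed and the calls did not. With each library left out in turn, the changes ran from -1.15 to -0.45 for vit-2 and from -1.27 to -0.46 for vit-6. The call of vit-1 was lost with any 1 of the 5 libraries left out (edgeR adjusted p from 0.0817 to 0.124), at log2 changes of -1.23 to -1.38. DESeq2 called 1 of 7 (vit-5, DESeq2 adjusted p = 0.0222) against 1.51% of all genes, gave no adjusted p for vit-1, vit-3 and vit-4, and with all groups in 1 edgeR fit 0 were called.

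In these libraries the 14 intestine markers summed to 30.4 and 30.6 CPM in ethanol and to 15.9, 27.8 and 0 CPM in auxin. Of the 14 markers, 9 and 10 were detected in ethanol and 7, 8 and 0 in auxin, and elt-2 had 0 counts in all 3 auxin libraries. Only 1 of the 14 had counts enough to be tested, at a log2 change of -0.16, and it was not called. The sheath and spermatheca list summed to 2357 and 3112 CPM in ethanol and to 772 to 1583 CPM in auxin, with 9 of 9 markers detected in ethanol and 2 to 9 in auxin. The 8 hypodermis markers summed to 17.2 and 39.0 CPM in ethanol and to 44.5, 26.6 and 9.90 CPM in auxin, and the 9 body wall muscle markers to 674 and 425 CPM in ethanol and to 298, 433 and 59.4 CPM in auxin, both overlapping between treatments. The part of these tissues in the fall was not tested.

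Tested against each other, the strains gave no yolk gene with a called difference in response. Between RPOA-2 and GRWD-1, the differences of the log2 changes were -0.42 to 0.10, with SEs of 0.220 to 1.82, and 0 of 7 were called, against 0.0105% of 9495 genes. Between GRWD-1 and TSR-2 they were -0.31 to 0.48 and between RPOA-2 and TSR-2 -2.54 to 0.15, both on fractional counts with replicates 1 to 3 of RPOA-2, and 0 of 7 yolk genes and 0% of 11851 genes were called in each. The largest was that of vit-4 between RPOA-2 and TSR-2, at -2.54 ± 1.13 (SE), with an unadjusted p of 0.0345 and an edgeR adjusted p of 0.878. At an unadjusted p under 0.05, vit-3 and vit-4 passed in this contrast, against 4.94% of all genes. None of the 7 passed in the other 2, against 4.61% for RPOA-2 and GRWD-1 and 5.07% for GRWD-1 and TSR-2, and DESeq2 called 0 of 7 in all 3. With SEs above 1 on the log2 scale for the vitellogenins, even a difference of -2.54 was not called. The absence of calls therefore does not show that the strains responded alike.

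**Figure D4:**
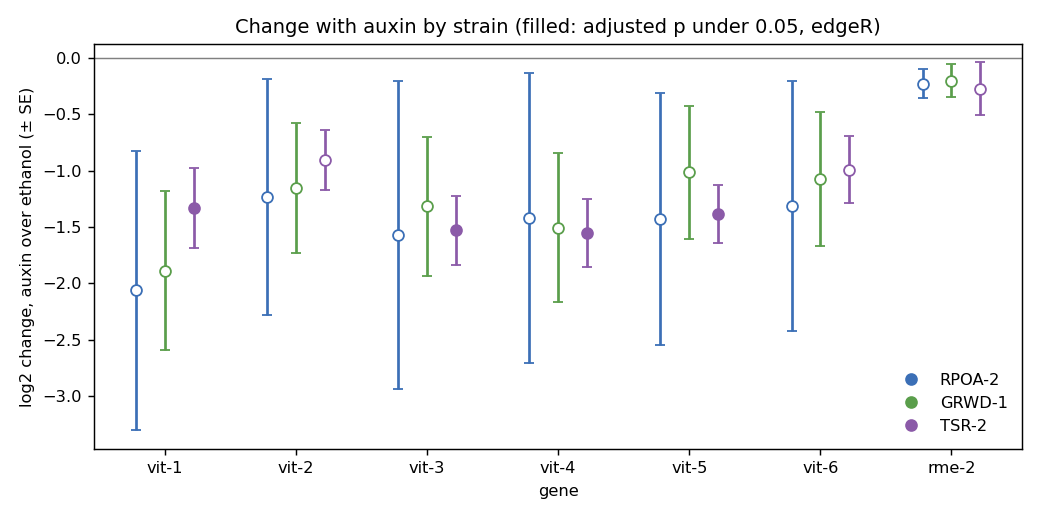
Fitted log2 change of auxin over ethanol (y axis, with its SE as bars) for each yolk gene (x axis) in the 3 strains, filled where the edgeR adjusted p was under 0.05. All values lie below 0, from -0.20 to -2.06, the RPOA-2 bars are the longest for the vitellogenins, and the filled points are vit-1, vit-3, vit-4 and vit-5 in the TSR-2 strain.

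The receptor gene rme-2 was among the abundant transcripts of the gonad in every group and varied little. It stood at 1315, 1271, 1518 and 1599.8 CPM in RPOA-2 ethanol replicates 1 to 4 and at 1335, 979.8, 1262 and 1303 CPM in auxin. In the GRWD-1 strain it stood at 1169, 1436 and 1419 CPM in ethanol and at 1062, 1209 and 1291 CPM in auxin. The treatments overlapped in both strains, with a largest difference between replicates of 1.36 times. In the TSR-2 strain, rme-2 was at 1171 and 1344 CPM in ethanol and at 1018, 1066 and 970.2 CPM in auxin, without overlap.

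Its log2 change was -0.23 ± 0.128 (SE) in the RPOA-2 strain, -0.20 ± 0.147 in the GRWD-1 strain and -0.27 ± 0.232 in the TSR-2 strain, with edgeR adjusted p-values of 0.364, 0.520 and 0.622. It was called in none of the 3 strains, nor under any of the alternatives run. Per length, rme-2 stood at 497 ± 55.1 CPM per kilobase in RPOA-2 ethanol (SD, n = 4) and 426 ± 56.8 in auxin, at 468 ± 52.1 and 414 ± 40.4 in the GRWD-1 strain (n = 3), and at 438 ± 42.6 (n = 2) and 355 ± 16.7 (n = 3) in the TSR-2 strain. On this scale it took ranks 153 to 183 of 5678 genes in the protein-coding table.

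In 4 of the 6 groups (both treatments of GRWD-1 and of TSR-2), the mean of the receptor transcript was above that of every vitellogenin transcript per length. In RPOA-2 auxin this turned on replicate 4: vit-6 was at 632 ± 972 CPM per kilobase (SD, n = 4) and rme-2 at 426, and without that library vit-6 was at 149 ± 114.6 and rme-2 at 416 ± 65.5 (n = 3). In GRWD-1 ethanol, the order was rme-2, then vit-6 at 237 ± 218 CPM per kilobase (SD, n = 3), vit-2 at 142 ± 125 and vit-5 at 65.0 ± 56.8. The levels of vit-4 (14.5 ± 11.8), vit-1 (14.2 ± 13.2) and vit-3 (11.2 ± 7.41) came last. The SDs of neighbouring vitellogenins in this order overlapped, but these genes moved together across libraries. Within each GRWD-1 ethanol library, vit-6 was above vit-2, vit-2 above vit-5, and vit-5 above vit-1, vit-3 and vit-4. In RPOA-2 ethanol, vit-6 at 1526 ± 1495 and vit-2 at 1019 ± 997 CPM per kilobase (SD, n = 4) had higher means than rme-2 but SDs that covered it. The mean of vit-5, at 499.5 ± 471.4, was about level with that of rme-2, at 497.4 ± 55.1. In TSR-2 ethanol, from fractional counts, vit-6 at 146 ± 61.1 and vit-2 at 97.4 ± 35.6 CPM per kilobase (SD, n = 2) were below rme-2 by more than their spread.

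Among the other genes of yolk uptake, single genes were called. Of all genes tested, 3.78, 2.69 and 2.55% were called in the strains of RPOA-2, of GRWD-1 and of TSR-2. In lists this short, a single call is above these shares. Of the 4 other members of the low-density lipoprotein receptor family, all were tested in each strain, and lrp-2, which encodes a megalin-like receptor, fell in the RPOA-2 strain. It stood at 127 ± 21.4 CPM in ethanol and 64.7 ± 13.6 CPM in auxin (SD, n = 4), a log2 change of -1.0 ± 0.188 with an edgeR adjusted p of 0.0207. With each library left out in turn, that p ran from 0.0296 to 0.0765, and the call was lost in 5 of 8 such fits (without auxin replicate 1, 2 or 3 or ethanol replicate 1 or 3). In the GRWD-1 and TSR-2 strains its log2 changes were -0.67 and -0.98, with edgeR adjusted p-values of 0.208 and 0.130. The genes egg-1 and egg-2, whose products sit on the oocyte surface and are needed for sperm entry, did not pass in any strain. The median log2 change of these 4 genes was -0.49, -0.20 and -0.74 in the strains of RPOA-2, of GRWD-1 and of TSR-2, against -0.01, 0.00 and -0.03 over all genes tested.

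Of 12 genes of endocytosis and recycling, among them the clathrin heavy chain gene chc-1 and the recycling regulator rme-1, 11 were tested in each strain. None was called in the RPOA-2 and GRWD-1 strains, and in the TSR-2 strain dyn-1, the dynamin gene, fell by 1.22 ± 0.323 on the log2 scale (edgeR adjusted p = 0.0357). It was 1 of 11 in that strain, against 2.55% of all genes called. Auxin replicate 3 was at 0 counts for dyn-1, and the other auxin libraries reached at most 46.0 CPM against 73.1 and 102 CPM in ethanol. The call of dyn-1 was lost without auxin replicate 1 (edgeR adjusted p = 0.175), auxin replicate 3 (0.104) or ethanol replicate 1 (0.169). Among 11 regulators of the vitellogenin genes and factors of lipoprotein assembly, 7, 7 and 5 were tested in the strains of RPOA-2, of GRWD-1 and of TSR-2. Of these, 1, 0 and 0 were called, against 3.78, 2.69 and 2.55% of all genes. The gene rict-1, which encodes a subunit of target of rapamycin complex 2, rose in the RPOA-2 strain, from 195 ± 35.5 to 292 ± 38.7 CPM (SD, n = 4; log2 change 0.58 ± 0.124, edgeR adjusted p = 0.0306). Its log2 change was 0.64 in the GRWD-1 strain and 0.11 in the TSR-2 strain, with edgeR adjusted p-values of 0.0599 and 0.874. With each of the 8 RPOA-2 libraries left out in turn, the edgeR adjusted p of rict-1 ran from 0.0474 to 0.157 and it was called in 1 of 8 such fits, without ethanol replicate 4.

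All 14 other oocyte transcripts were tested in each strain. None was called in the RPOA-2 and GRWD-1 strains, with median log2 changes of 0.07 and 0.02. In the TSR-2 strain the median was -0.33, and 2 genes fell: perm-4 by 1.80 ± 0.289 (edgeR adjusted p = 0.000887) and perm-2 by 1.61 ± 0.278 (edgeR adjusted p = 0.00209), both on the log2 scale. These genes encode proteins of the eggshell's outer layers. They are 2 of 14, where 2.55% of all genes tested were called. perm-4 stood at 914 and 1272 CPM in ethanol and at 79.2 to 435 CPM in auxin. Without auxin replicate 3 the edgeR adjusted p was 0.0600 for perm-4 and 0.0591 for perm-2, and both were called without each of the other 4 libraries. The summed oocyte list was 13056 and 15014 CPM in ethanol and 7999.5 to 13166 CPM in auxin, with a slight overlap.

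Over the 14 libraries, the 5 genes whose log2(CPM + 1) was most like the summed vitellogenins, of 5671 genes with a mean of at least 10 CPM, were Y39B6A.1 (Pearson's r 0.975), bcf-1 (0.974), asp-3 (0.972), asp-6 (0.961) and gfi-1 (0.959). The aspartyl protease gene asp-3 stood at 6.58, 184, 43.8 and 102 CPM in RPOA-2 ethanol replicates 1 to 4 and at 8.70, 10.4, 0.896 and 122 CPM in auxin. Its high libraries, ethanol replicates 2 and 4 and auxin replicate 4, are those of the vitellogenins. Without the 2 libraries farthest from the median, RPOA-2 ethanol replicates 2 and 4, r was 0.927 to 0.958 for the 5 genes.

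For rme-2, likeness was weaker. The closest genes were pqn-65 (r 0.879), cdh-4, which encodes a Fat-like cadherin (0.840), imp-2, which encodes an intramembrane protease (0.832), K09E3.7 (0.826) and panl-2 (0.812). Without the 2 libraries farthest from the median, RPOA-2 auxin replicate 2 and ethanol replicate 4, r was 0.655 to 0.773. These genes were ranked by likeness, so their r is a description with no test.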

How the data were processed

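The authors deposited whole-number counts of protein-coding genes for 14 libraries, and fractional counts (expected counts, reads that map to several places being divided) for 17. Per the submitters' processing notes, Trim Galore 0.6.10, HISAT2 2.2.1, Picard, featureCounts 2.0.6 and WBcel235 were used. The strand setting and the treatment of multiply mapping reads in the first table are not given in the sources used here. All deposited sample columns were used.

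The members and gene lists were chosen with earlier results of these data known. Genes named are the 7 members, the 5 most like the summed vitellogenins and rme-2, and called list genes (up to 4 per list and strain). Under the same rule, elt-2 was named as a defining marker of the intestine. The genes egg-1, egg-2, chc-1 and rme-1 fall outside this rule and were named after their values were seen. Fits used edgeR 4.0.16 in R 4.3.3: filterByExpr, TMM and the quasi-likelihood F test, auxin against ethanol for each strain apart, no covariates, with adjustment by Benjamini-Hochberg over all genes at 0.05. For TSR-2, fractional counts of protein-coding genes were rounded. Differences between strains were contrasts with 1 coefficient per group. CPM are counts over TMM library sizes, CPM per kilobase use union exon length, and SEs were derived from each log2 change and its F statistic. The code was tested on simulated data.

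Pairing was checked by correlating deviations from group means across genes. Same-numbered libraries gave r of 0.175 to 0.314 in RPOA-2 and 0.233 to 0.459 in GRWD-1. Libraries with unlike numbers gave -0.441 to 0.300 in RPOA-2, which overlaps, and -0.450 to 0.144 in GRWD-1. Deviations within a group sum to 0, so unlike-numbered r are pushed below 0 where same-numbered r are above 0. The gap between them is therefore in part built in, and it comes from the same data as the blocked fits. The numbers, taken from the labels, were regarded as pairs in both strains, with less ground in RPOA-2. In TSR-2 the r of same-numbered libraries was -0.180 and -0.0720, and they were not regarded as pairs. Alternatives were DESeq2 1.42.0, other size factors and filters, other samples or blocks, and each library left out. Gene and transcript sequences were not used here.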

Additional observations from a re-analysis of the deposited data

Results flagged for a closer look

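On the linear CPM scale, in the RPOA-2 auxin group, replicate 4 stood farther above the other 3 libraries than Dixon's 95% limit for 4 samples allows in 5 vitellogenin genes and in the family's sum. It stood at 714 CPM for vit-1, 668 CPM for vit-3, 731 CPM for vit-4, 3171 CPM for vit-5 and 10548 CPM for vit-6, and at 22487 CPM for the sum of the 6 genes. The next highest library reached 55.8, 29.5, 31.2, 222, 1405 and 3164 CPM. On the log2(CPM + 1) scale none of the 6 passed that limit, with gap ratios of 0.560 to 0.809. The rate of about 1 in 20 groups that chance marks holds for values without the skew of these CPM, and the genes move together, so the 6 marks are not independent. Its intestine markers, at a summed 407 CPM, were also the highest of the group, and their part in these levels was not tested. For vit-2 the library stood at 6654 CPM against 1499 CPM for the next, within the limit.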

How the results depend on the processing

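The 7 log2 changes kept their sign in every strain and alternative except vit-5 and vit-6 in GRWD-1, which ran from -1.81 to 0.032 and from -1.73 to 0.087 with each library left out, above 0 without ethanol replicate 1. In RPOA-2 the count of called yolk genes, 0, was 1 without the low-count filter (vit-1, against 1.5% of all genes), 0 to 1 with each library left out, and 1 (vit-4) without ethanol replicate 2 and both replicate 4 libraries, a choice made after seeing the data (2.15% of all genes). With the replicate block 0 were called there, vit-1 and vit-3 at an edgeR adjusted p of 0.0664 and 0.0661. In GRWD-1 the count of 0 was 6 without the filter (1.29% of all genes) and 6 with the replicate block (14%). In TSR-2 the count of 4 was 1 under DESeq2 (vit-5; adjusted p not given for vit-1, vit-3 and vit-4), 0 with all groups in 1 fit (0.228% of all genes), 2 with the replicate block (0.485%), 5 without the filter (1.67%), 5 with adjacent library numbers as a block, 6 with RLE size factors and 0 to 5 with each library left out, the 0 being without auxin replicate 3. The cause of these shifts was not tested. Under DESeq2 the median log2 change of all genes in RPOA-2 was -0.22 against -0.01. The replicate block changed no other call of a yolk gene in these strains beyond those given; in TSR-2, where the numbers did not pair the libraries, dyn-1, fln-1, perm-4, syp-1 and unc-89 were not called with it (edgeR adjusted p from 0.0645 to 0.367). Windows of transcript sequence shared between copies were not run, for want of sequences. Depth limited auxin replicate 3 of TSR-2 most, where 3 counts were 59.4 CPM.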

Other observations

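Genes of the cell-type lists that were called, chosen by the rule for named genes, are given here. Of all genes tested, 3.78, 2.69 and 2.55% were called in the strains of RPOA-2, of GRWD-1 and of TSR-2. The filamin gene fln-1, needed for contraction of the spermatheca, fell in all 3 strains, with log2 changes of -0.83, -1.34 and -1.23 in the strains of RPOA-2, of GRWD-1 and of TSR-2 (edgeR adjusted p 0.0324, 0.00740 and 0.00576). Its level was 1781 ± 460.4 CPM in RPOA-2 ethanol and 1004 ± 154 CPM in auxin (SD, n = 4). In the GRWD-1 strain it was 2593 ± 544 and 1047 ± 222 CPM (n = 3), and in the TSR-2 strain, from fractional counts, 2570.5 ± 552 (n = 2) and 1054 ± 390.4 CPM (n = 3). With each library left out in turn, the call held in 6 of 6 fits in the GRWD-1 strain, in 1 of 8 in the RPOA-2 strain (without ethanol replicate 2; edgeR adjusted p from 0.0114 to 0.135) and in 3 of 5 in the TSR-2 strain, lost without auxin replicate 1 (0.0826) or 3 (0.132). The gene makes up most of the sheath and spermatheca sum given beside the vitellogenins.

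The synaptonemal complex gene syp-1 rose in the RPOA-2 strain (180 ± 10.8 to 268 ± 9.13 CPM, SD, n = 4; log2 change 0.56, edgeR adjusted p = 0.0116). It also rose in the TSR-2 strain, with a log2 change of 1.10 (edgeR adjusted p = 0.0113). The germ granule helicase gene glh-2 fell in the GRWD-1 strain, with a log2 change of -0.67 (edgeR adjusted p = 0.0391). The muscle gene unc-89 fell in the TSR-2 strain, with a log2 change of -1.63 (edgeR adjusted p = 0.0106), where auxin replicate 3 had 0 counts. With each library left out in turn, glh-2 was called in 0 of 6 fits (edgeR adjusted p from 0.0601 to 0.198). The syp-1 call was lost in the RPOA-2 strain without auxin replicate 2 (0.0518) or ethanol replicate 3 (0.0748), and in the TSR-2 strain without auxin replicate 3 (0.0719) or ethanol replicate 2 (0.0529). The unc-89 call was lost without auxin replicate 1 (0.0780) or 3 (0.0624). In the contrasts of RPOA-2 and of GRWD-1 with TSR-2, 0% of 11851 genes were called, so none of these 4 genes was. Between RPOA-2 and GRWD-1, 0.0105% of 9495 genes were called, and these 4 genes were not looked up there. The absence of calls does not show that the strains responded alike.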
